A study of Homo sapiens with 6 samples.

Results

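The genes described here are 10 receptor tyrosine kinases (RTKs) tied to bypass of sorafenib in liver cancer: EGFR, ERBB2, ERBB3, MET, AXL, IGF1R, INSR, EPHA2, FGFR3 and FGFR4. They were taken by symbol from the deposited expression table, and all 10 were found among its 38637 genes. RTKs are cell-surface receptors that bind a ligand outside the cell and phosphorylate themselves and adaptor proteins inside it. Through those adaptors they feed the RAS-RAF-ERK and PI3K-AKT cascades. Sorafenib inhibits RAF kinases and several angiogenic RTKs, and signalling from an RTK outside its target range is a known way for hepatocellular carcinoma (HCC) cells to keep these cascades active under the drug.

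The libraries came from HCCLM3-SR, a sorafenib-resistant line raised from the metastatic human HCC line HCCLM3 by gradual exposure to the drug. In 3 libraries the cells carried siRNA against the circular RNA cDCBLD2 (cDCBLD2 knockdown), and in the other 3 they carried the control siRNA siCTRL. Transfection lasted 3 days and both groups were kept in 5 µM sorafenib, so no comparison with parental or drug-free cells was made. PolyA-Seq, the sequencing of polyadenylated RNA, measured all genes, and the question was which mRNAs differ when cDCBLD2 is depleted.

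Levels were deposited as TPM, a length-normalised abundance that sums to 1000000 in each library and can be compared between genes. Whole reads recovered from the ratios of TPM values gave between 17491766 and 23063217 reads per library, which are lower bounds. The fewest reads were in replicate 1 of each group. For the 10 receptors the recovered reads ranged from 652 for ERBB2 in control replicate 1 to 99017 for MET in control replicate 3, and the largest relative counting error was 3.92%. This error covers counting only and not amplification. DCBLD2 is the host gene of the targeted circRNA. DCBLD2 mRNA lay between 25.9 and 58.1 TPM after knockdown and between 48.5 and 71.5 TPM in control cells. In the fits described below its log2 fold change was -0.61 (limma adjusted p = 0.253 unblocked and 0.0139 blocked by replicate number). Within pairs of the same number the log2 difference was -0.29, -0.88 and -0.67. The paper saw no obvious consistent change of DCBLD2 mRNA or protein across its resistant lines after knockdown. Gene-level values do not separate the circle from the linear mRNA. The epithelial keratins KRT8 and KRT18 were at 1800 TPM or more in every library. The other epithelial markers were lower, with CDH1 at 37.7 to 62.0 and KRT7 at 5.42 to 14.3 TPM. KRT19 was at 0.806 to 1.91 and EPCAM at 0.0686 to 0.323 TPM. The hepatocyte transcription factor HNF4A was at 22.9 to 31.3 TPM. Of 10 hepatocyte and HCC markers, 4 averaged 1 TPM or more. Secreted ones were low, with ALB at 0.189 to 1.58, AFP at 0.926 to 2.08, SERPINA1 at 1.30 to 3.00 and APOB at 0.902 to 4.26 TPM, and the membrane-bound HCC marker GPC3 was listed at 0 in 4 of the 6 libraries. Among markers of other cell types, PTPRC was at 0.231 to 0.411 TPM and CD3E was listed at 0 in every library, while CD68 lay between 90.0 and 125 TPM. The fibroblast marker LUM lay between 26.7 and 59.1 TPM. The other fibroblast markers were lower, with COL1A1 at 1.13 to 11.2, COL3A1 at 0.476 to 3.36 and COL1A2 at 0 to 2.67 TPM. DCN was at 0.0650 to 0.287 and PDGFRB at 0.0202 to 0.314 TPM. The mesenchymal marker FN1 lay between 1492 and 2249 TPM, CDH2 between 71.7 and 81.8 and VIM between 22.7 and 28.5 TPM. SNAI2 was at 3.26 to 4.72 and ZEB1 at 1.57 to 5.33 TPM.

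MET mRNA stood far above the other 9 receptors. Averaged over the 6 libraries it was at 1435 TPM, the 95th highest mean of all 38637 genes, and EPHA2 followed at 137 TPM. Within a library, MET was between 6.77 and 13.9 times the next receptor. FGFR4 averaged 88.6 TPM, AXL 59.2, ERBB3 55.6, FGFR3 46.1, EGFR 43.5, ERBB2 21.0, IGF1R 19.9 and INSR 17.2 TPM. The ranges of MET and EPHA2, of EPHA2 and FGFR4, and of EGFR and ERBB2 did not overlap. The ranges of every other pair of neighbours in this order did. AXL was above ERBB3 in 3 of the 6 libraries and FGFR3 above EGFR in 2, so their places depended on the library.

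**Figure D1:**
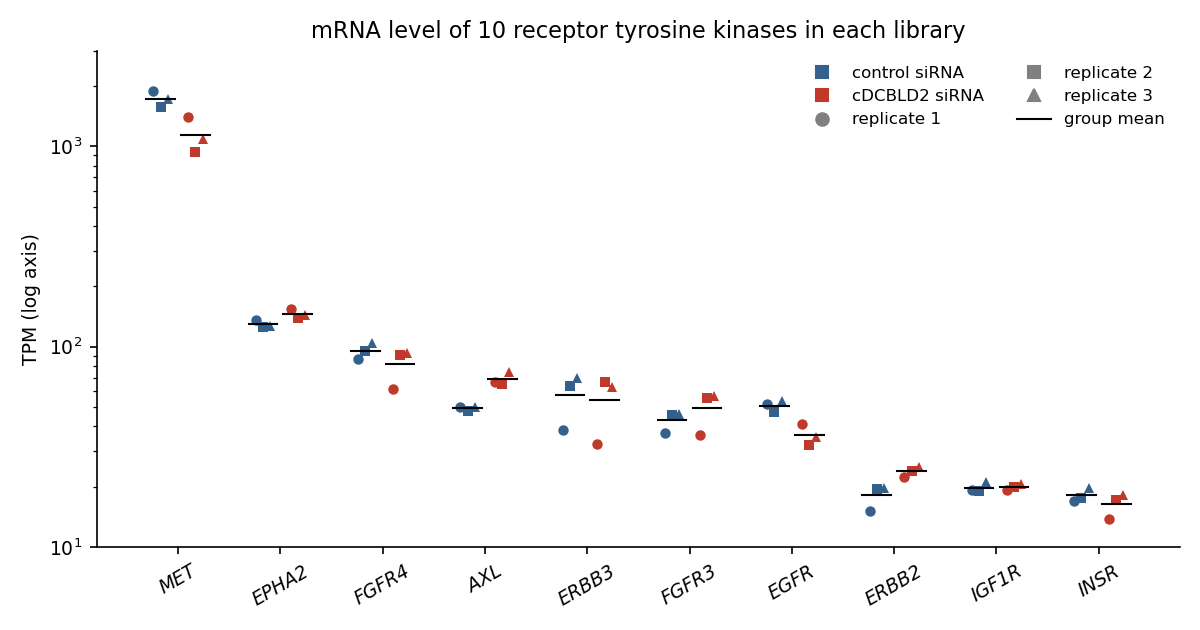
TPM on a log axis for each of the 10 receptors, ordered by mean level, with blue symbols for control siRNA, red symbols for cDCBLD2 siRNA, a symbol shape for each replicate number and a black bar at each group mean (n = 3). MET lies between 942 and 1884 TPM, no other receptor exceeds 154 TPM, and the red and blue symbols separate for MET, EPHA2, AXL, EGFR and ERBB2.

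No receptor passed the test across all genes when replicate numbers were ignored. That test was limma on log2(TPM + 1), adjusted over 13980 genes by the Benjamini-Hochberg method, and 0 of 10 receptors had an adjusted p under 0.05, against a background of 0.880% of all genes tested. At an unadjusted p under 0.05 there were 5 of 10, against 26.1%, and limma-voom on the recovered reads called 1 of 10, AXL, against 3.01%. Upper-quartile scaling also called AXL alone (background 0.866%), and removing the GC-content trend without a block called 0 (background 0.972%). A block by replicate number treats libraries of the same number as paired, which is uncertain for numbers 2 and 3. With the replicate number as a block, 5 of 10 receptors passed, against a background of 35.0%. AXL, ERBB2 and EPHA2 were the 3 higher ones (background 9.94%) and MET and EGFR the 2 lower ones (background 25.0%). Voom with the block called these 5 and FGFR3, 6 of 10 against 38.0%, and the unblocked fit without knockdown replicate 1 called AXL, EGFR and MET, 3 of 10 against 24.4%. In the same 5 receptors all libraries of 1 group lay beyond those of the other, a property of 31.9% of genes (9.58% with knockdown higher and 22.3% with it lower). No receptor reached a log2 fold change of 1 in size in either fit, beyond which 0.129% of genes were also called without the block and 1.21% with it. In these bulk libraries a lower level per cell and fewer cells with the mRNA cannot be told apart. The median log2 fold change was -0.05 over the 10 receptors and -0.08 over all genes tested.

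**Figure D2:**
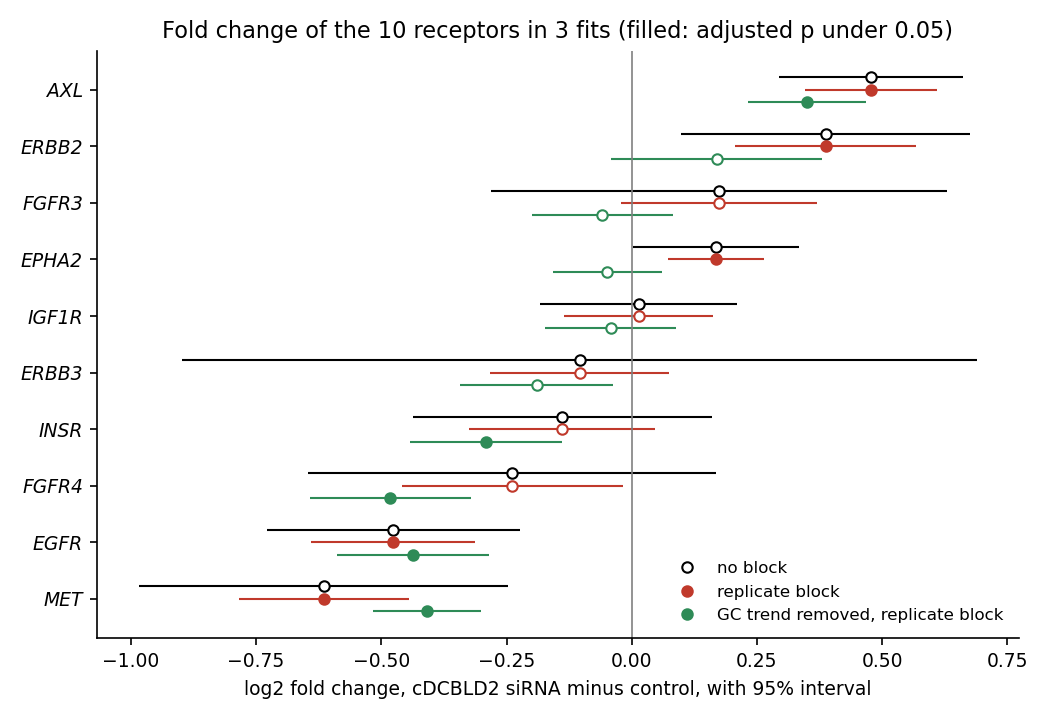
Log2 fold change (cDCBLD2 siRNA minus control, on log2(TPM + 1)) of each receptor with its 95% interval in 3 limma fits, where filled circles mark an adjusted p under 0.05. AXL, EGFR and MET are filled in both fits with the replicate block, ERBB2 and EPHA2 only before the GC-content trend is removed, INSR and FGFR4 only after it, and no circle is filled in the fit without the block.

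MET, the receptor of hepatocyte growth factor, is encoded on the plus strand of chromosome 7 (GRCh38, 116672390 to 116798386), with 21 exons in its principal transcript in GENCODE release 29. The MET values were 1399, 942 and 1082 TPM for knockdown replicates 1, 2 and 3, against 1884, 1578 and 1725 TPM for the matching controls. The groups did not overlap, with knockdown lower, and replicate 1 was the highest of each group. The means were 1141 ± 234 TPM (SD, n = 3) and 1729 ± 153 TPM (SD, n = 3), and the log2 fold change was -0.62 ± 0.15 (SE), where limma gave adjusted p = 0.0856 ignoring replicate numbers and 0.0054 in the replicate block fit. Within pairs of the same number the log2 difference was -0.43, -0.74 and -0.67. MET thus held the largest share of receptor mRNA in both groups at a level about 0.66 times that of control cells after knockdown. The log2 fold change lay between -0.77 and -0.41 over 17 alternatives, with limma adjusted p from 0.000398 to 0.274.

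Of the ERBB family, EGFR binds EGF-like ligands, ERBB2 has no known ligand and acts as a dimer partner, and ERBB3 binds neuregulins but has little kinase activity of its own. EGFR (chromosome 7, 55019021 to 55211628, plus strand) was at 40.9, 32.3 and 35.6 TPM after knockdown and at 51.6, 47.1 and 53.3 TPM in control cells. All knockdown libraries lay below all control libraries. The means were 36.3 ± 4.38 and 50.7 ± 3.18 TPM (SD, n = 3 each), with a log2 fold change of -0.48 ± 0.11 (SE), where limma gave adjusted p = 0.0702 ignoring replicate numbers and 0.00762 in the replicate block fit. EGFR-AS1, an antisense gene, overlaps an EGFR exon by up to 186 bases, and since a strand setting is not given in the sources used here, reads there cannot be told apart.

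ERBB2 (chromosome 17, 39687914 to 39730426, plus strand) had the opposite direction. It was at 22.4, 24.1 and 25.0 TPM after knockdown and at 15.1, 19.4 and 19.7 TPM in control cells, with no overlap. The log2 fold change was 0.39 ± 0.12 (SE), where limma gave adjusted p = 0.118 ignoring replicate numbers and 0.0141 in the replicate block fit, the largest pair difference being 0.53 in replicate 1. MIEN1 lies on the opposite strand and shares up to 167 exonic bases with ERBB2. ERBB3 (chromosome 12, 56076799 to 56103505, plus strand) varied with the replicate number instead. It was at 32.7 and 38.4 TPM in replicate 1 of the knockdown and control cells, and between 62.6 and 70.1 TPM in the other 4 libraries. The log2 fold change was -0.10 with a 95% interval from -0.90 to 0.69 (limma adjusted p = 0.863 unblocked, and 0.302 blocked by replicate with an interval of -0.28 to 0.08). AC034102.2, a protein-coding gene on the same strand, shares up to 31 exonic bases with ERBB3.

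AXL, the receptor of GAS6 in the TAM family, had the smallest adjusted p of the 10 receptors in the fit without the block. AXL (chromosome 19, 41219203 to 41261766, plus strand) was at 66.9, 65.5 and 75.0 TPM after knockdown and at 50.1, 47.6 and 50.1 TPM in control cells. The lowest knockdown library lay well above the highest control library. The means were 69.1 ± 5.12 and 49.3 ± 1.43 TPM (SD, n = 3 each), and the log2 fold change was 0.48 ± 0.08 (SE), where limma gave adjusted p = 0.0526 ignoring replicate numbers and 0.00541 in the replicate block fit. It stayed between 0.35 and 0.59 over 17 alternatives, 9 of which gave a limma adjusted p under 0.05 (range 0.00028 to 0.223). In control cells AXL and EGFR were at nearly the same level, with an AXL to EGFR ratio of 0.971, 1.01 and 0.941 in replicates 1, 2 and 3. After knockdown the ratio was 1.63, 2.03 and 2.11, a description chosen after the values were seen and given without a test. AC011510.1, an antisense gene, overlaps an AXL exon by up to 67 bases, and reads there cannot be told apart either.

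EPHA2, a receptor of membrane-bound ephrin-A ligands, was the second highest of the 10. EPHA2 (chromosome 1, 16124337 to 16156087, minus strand) was at 154, 139 and 143 TPM after knockdown and at 136, 125 and 127 TPM in control cells. The groups did not overlap, by a margin of 139 against 136 TPM. The pair differences were close to each other at 0.18, 0.15 and 0.17, and the log2 fold change was 0.17 ± 0.07 (SE), where limma gave adjusted p = 0.185 ignoring replicate numbers and 0.0243 in the replicate block fit. With the GC-content trend taken out of each library, EPHA2 was at -0.05 (limma adjusted p = 0.83 unblocked and 0.42 blocked by replicate).

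IGF1R and INSR are the receptors of insulin-like growth factors and insulin and are built alike. IGF1R (chromosome 15, 98648539 to 98964530, plus strand) was the steadiest of the 10, at 19.2, 19.9 and 20.7 TPM after knockdown and at 19.2, 19.0 and 21.1 TPM in control cells. Its log2 fold change was 0.01 with a 95% interval from -0.18 to 0.21 (limma adjusted p = 0.928 unblocked and 0.871 blocked by replicate). INSR (chromosome 19, 7112255 to 7294034, minus strand) was the lowest, at 13.9, 17.1 and 18.3 TPM after knockdown and at 17.0, 17.5 and 19.7 TPM in control cells. These groups overlapped, and the log2 fold change was -0.14 ± 0.12 (SE), where limma gave adjusted p = 0.507 ignoring replicate numbers and 0.197 in the replicate block fit. Without knockdown replicate 1 INSR was at -0.03, without control replicate 3 at -0.08 and without knockdown replicate 3 at -0.22. After removal of the GC-content trend INSR was at -0.29 (limma adjusted p = 0.12 unblocked and 0.0192 blocked by replicate).

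FGFR3 and FGFR4 are fibroblast growth factor receptors, and FGFR4 is the FGF19 receptor of hepatocytes when joined by the co-receptor KLB. FGFR3 (chromosome 4, 1793293 to 1808872, plus strand) was at 36.1, 55.2 and 56.6 TPM after knockdown and at 37.0, 45.8 and 46.0 TPM in control cells. Replicate 1 was low in both groups and the pair differences were -0.03, 0.26 and 0.29. The log2 fold change was 0.17 ± 0.19 (SE), where limma gave adjusted p = 0.592 ignoring replicate numbers and 0.14 in the replicate block fit. Without knockdown replicate 1 FGFR3 was at 0.38, and without knockdown replicate 2, knockdown replicate 3 or control replicate 1 it was between 0.06 and 0.08. FGFR4 (chromosome 5, 177086886 to 177098144, plus strand) was at 61.5, 90.7 and 93.3 TPM after knockdown and at 86.9, 94.9 and 104 TPM in control cells. Knockdown replicate 1 was the lowest library by far, and the other knockdown libraries lay within the control range. The log2 fold change was -0.24 ± 0.17 (SE), where limma gave adjusted p = 0.406 ignoring replicate numbers and 0.0886 in the replicate block fit. Without that library it was -0.05. After removal of the GC-content trend FGFR4 was at -0.48 (limma adjusted p = 0.0604 unblocked and 0.00707 blocked by replicate).

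The study places cDCBLD2 upstream of miR-345-5p, so the transcripts of the 10 receptors were searched for the 7 bases GAGTCAG that pair with the seed of that miRNA. The mature miRNA, from RefSeq (GRCh38.p14, chr14:100307876-100307897, plus strand), is shown with seed bases 2 to 8 in capitals, and the matches in GENCODE release 29 transcripts are shown with the 7 bases in capitals. The sense strand of 1 principal transcript per gene was read, and the match in TOP2A, the target named by the study, is printed for comparison. The paper itself reports 2 sites in the TOP2A coding sequence, predicted with miRWalk. Whether the match printed here is 1 of them was not checked.
miR-345-5p: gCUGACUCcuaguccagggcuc
FGFR4: gttctccctgGAGTCAGgctcttccgg
INSR: gacggtcaacGAGTCAGccagtctccg
TOP2A: gtacctggaaGAGTCAGatgaagatga
The FGFR4 match is in the coding sequence in exon 10 of 18 (GRCh38, chr5:177093415-177093421, plus strand). The INSR match is in the coding sequence in exon 17 of 22 (GRCh38, chr19:7125354-7125360, minus strand). The TOP2A match is in the coding sequence in exon 35 of 35 (GRCh38, chr17:40389539-40389545, minus strand). A match in the coding sequence was thus found in 2 of 10 receptors, against 12.8% of the 11772 protein-coding genes tested. A match in the 3′ UTR was found in 0 of 10, against 9.79%. INSR and FGFR4, which hold the match, passed as lower only in the fit with the GC-content trend removed and the replicate block, as described above, and MET and EGFR passed as lower in that fit and in the replicate block fit. A match is a description and says nothing of the cause of a difference.

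The sum of the 10 receptors, most of it MET, was 1637 ± 198 TPM after knockdown against 2210 ± 140 TPM for control (SD, n = 3 each), with no overlap (two-sided exact permutation test, p = 0.1, which is the minimum for groups of 3). MET made up 75.8, 64.8 and 67.1% of the sum in the 3 knockdown libraries, against 80.7, 76.7 and 77.1% in their controls (two-sided exact permutation test, p = 0.1). A share within a library does not depend on how libraries were scaled. It can still follow the GC-content trend described below, and MET had the lowest GC content of the 10 receptors, at 42.4%. Shares with that trend removed were not tested. Without MET, the sum of the other 9 was 496 ± 43.2 TPM after knockdown against 481 ± 30.4 TPM for control (SD, n = 3 each, two-sided exact permutation test, p = 0.8). Within these 9, the AXL share was 14.0 ± 1.07% against 10.3 ± 0.719% and the EGFR share 7.39 ± 1.53% against 10.6 ± 0.814%, without overlap in either case. Within all 10, the EGFR share was 2.21 ± 0.00598% against 2.29 ± 0.0869%, with overlap (two-sided exact permutation test, p = 0.3), and the AXL share was 4.26 ± 0.557% against 2.23 ± 0.085%, without overlap. Again within the 9 without MET, the FGFR4 share was 16.4 ± 2.27% against 19.8 ± 0.554%, without overlap. The IGF1R share within these 9 was 4.04 ± 0.222% against 4.11 ± 0.148%, with overlap. Within all 10, FGFR4 was at 5.12 ± 1.57% against 4.33 ± 0.528%, with overlap, and IGF1R at 1.23 ± 0.172% against 0.896 ± 0.0637%, without overlap. Over the 9 receptors these shares were compared by 9 exact permutation tests, none of which can give a p under 0.1.

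The receptors fell apart by where their variation lay. Of the sum of squares of log2(TPM + 1) over the 6 libraries, 93.2% for AXL, 82.4% for EGFR, 73.9% for MET, 70.4% for ERBB2 and 69.2% for EPHA2 lay between the siRNA groups. For the other 5 receptors most of it lay between replicate numbers, with 96.0% for ERBB3, 86.6% for IGF1R, 78.6% for FGFR3, 65.2% for INSR and 60.0% for FGFR4. The medians over all genes tested were 34.6% between groups and 44.2% between replicate numbers. With 3 replicate numbers but 2 groups, unrelated variation alone gives replicate numbers the larger share. For IGF1R these are shares of a small variation, from 19.0 to 21.1 TPM. Replicate 1 had both the lowest ERBB3, FGFR3, FGFR4 and INSR values of each group and the fewest recovered reads, and the part of depth in this was not tested.

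**Figure D3:**
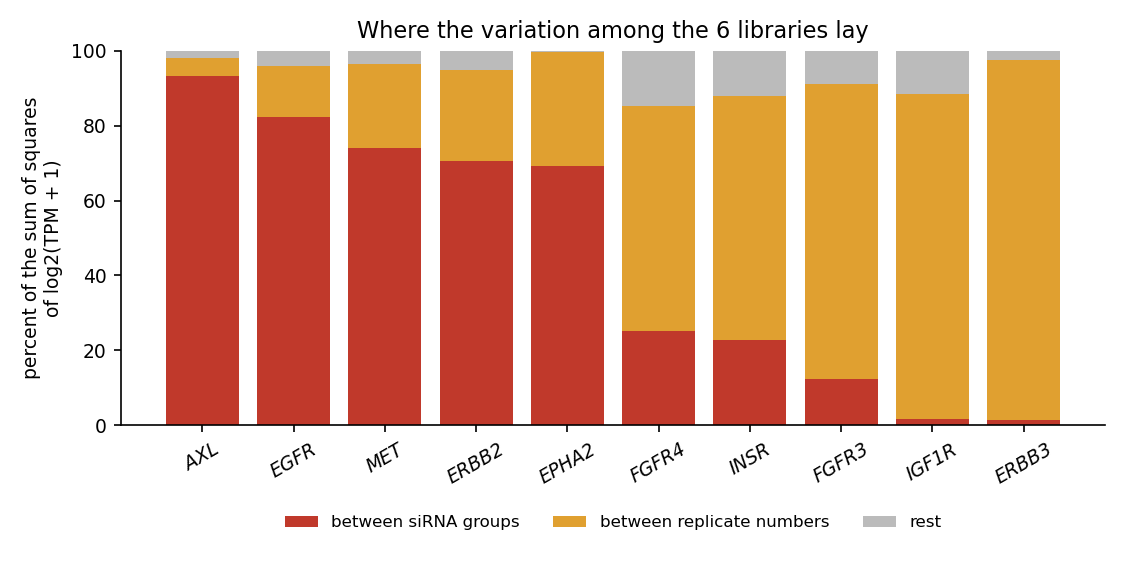
Stacked bars give, for each receptor, the percent of the sum of squares of log2(TPM + 1) over 6 libraries that lies between siRNA groups (red), between replicate numbers (orange) and in the rest (grey). AXL is at the left with 93.2% between groups and ERBB3 at the right with 1.54% between groups and 96.0% between replicate numbers.

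The GC content of the receptor transcripts ran from 42.4% for MET to 63.6% for FGFR4, and fold changes followed GC content across the transcriptome (Spearman's rho across 13163 genes 0.641, genes not being independent replicates). Genes in the same GC-content decile as MET had a median log2 fold change of -0.29, so MET at -0.62 was 0.32 below its GC neighbours. EGFR was 0.35 below its own decile, whose median was -0.12, and FGFR4 was 0.36 below a median of 0.12. AXL was 0.46 above a median of 0.02 and ERBB2 0.30 above a median of 0.09. EPHA2 and FGFR3 lay 0.08 above the same median and ERBB3, IGF1R and INSR lay between 0.16 below and 0.05 above theirs. In the fit with the GC-content trend removed and the replicate block, 5 of 10 receptors passed, against a background of 34.9%. AXL was the 1 higher receptor at 0.35 (background 5.79%, limma adjusted p = 0.00725). EGFR at -0.44, MET at -0.41, INSR and FGFR4 were the 4 lower ones (background 29.2%), with limma adjusted p between 0.00574 and 0.0192. ERBB2 was then at 0.17 (limma adjusted p = 0.17), and the median of all genes in this fit was -0.12. The part of GC content in these differences was not tested further.

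**Figure D4:**
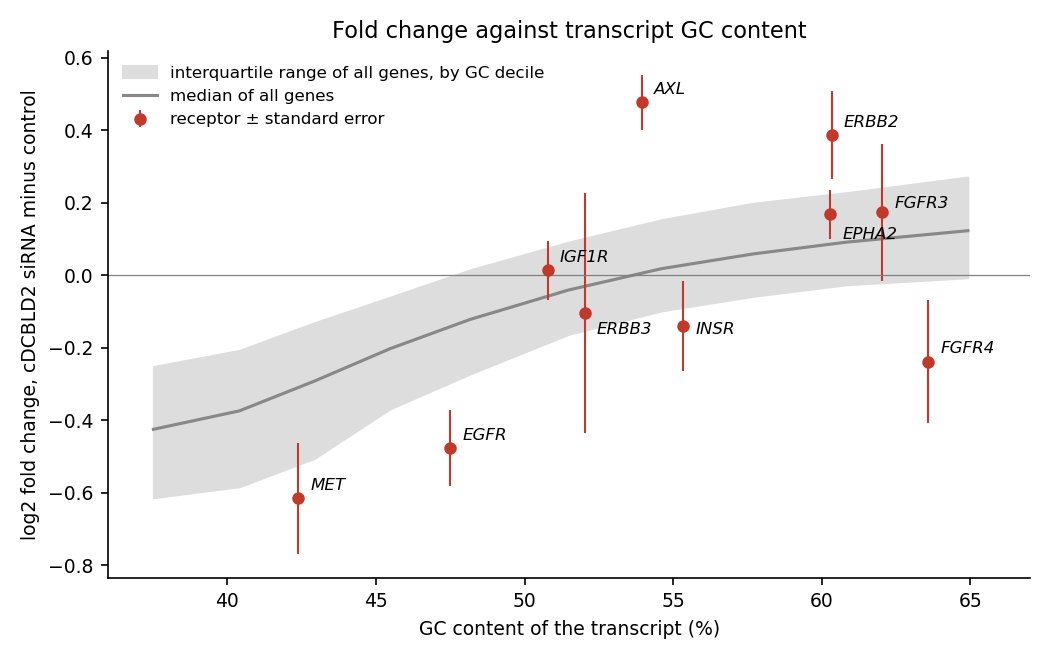
Log2 fold change (cDCBLD2 siRNA minus control) against transcript GC content in percent. The grey line and band are the median and interquartile range of 13163 genes by decile of GC content, and red points are the 10 receptors with their standard errors in the fit without the block. MET, EGFR, FGFR4 and INSR lie below the interquartile range of their decile and AXL and ERBB2 above it.

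Among the ligands of these receptors, 17 of 26 listed genes were abundant enough to be tested, and 3 were listed at 0 in all libraries, among them IGF1 and FGF19. FGF19 was thus at 0 and KLB between 0.816 and 1.08 TPM in cells with FGFR4 at 61.5 TPM or more. HGF, the ligand of MET, was at 8.09, 12.9 and 13.5 TPM after knockdown and at 15.6, 14.0 and 15.5 TPM in control cells (limma adjusted p = 0.246 unblocked and 0.116 blocked by replicate). The knockdown libraries all lay below the control libraries, by a margin of 13.5 against 14.0 TPM. With the GC-content trend removed, the HGF log2 fold change went from -0.39 to -0.03 (limma adjusted p = 0.917 blocked by replicate). GAS6, the AXL ligand, was at 17.9 ± 3.83 and 14.8 ± 1.30 TPM (SD, n = 3 each). In the fit without the block 0 ligands passed, and with it 2 of 17 were higher and 3 of 17 lower, against 9.94% and 25.0% of all genes tested, so ligands were not called at a share far from that of genes at large. EFNA1, an ephrin-A ligand of EPHA2, was the most abundant ligand. It was at 103, 198 and 254 TPM after knockdown and at 63.2, 124 and 136 TPM in control cells. Its log2 fold change was 0.76 ± 0.41 (SE), where limma gave adjusted p = 0.284 ignoring replicate numbers and 0.00436 in the replicate block fit. EFNA4 at 50.6 ± 8.42 against 42.3 ± 1.68 TPM and AREG, an EGFR ligand, at 20.4 ± 6.78 against 19.0 ± 1.88 TPM (SD, n = 3 each) were next in level and did not pass. EFNA3 was also higher with the block (0.45, limma adjusted p = 0.00946). EGF fell with the block, at 3.76 ± 0.0197 against 5.54 ± 0.54 TPM (SD, n = 3 each, log2 fold change -0.46, limma adjusted p = 0.0213), and so did FGF2 at -0.39 and EFNA5 at -0.29. With the GC-content trend removed as well, EFNA1, EFNA3 and EGF passed and FGF2 and EFNA5 did not.

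Of 18 related receptors of the same families, 8 were tested, and 10 were under a mean of 1 TPM, among them ERBB4, FGFR1 and FGFR2. Without the block 0 passed. With it EPHB4, EPHB6, EPHB2 and MST1R, the close relative of MET, were higher and MERTK, a TAM receptor beside AXL, was lower, that is 4 of 8 and 1 of 8, against 9.94% and 25.0% of all genes tested. EPHB4 was the most abundant at 237 ± 31.7 TPM after knockdown against 207 ± 16.0 TPM for control (SD, n = 3 each). FGFRL1, an FGF receptor without a kinase domain, followed at 137 ± 8.88 and 124 ± 2.37 TPM (SD, n = 3 each) and did not pass (limma adjusted p = 0.0625 with the block). MERTK was at 12.5, 10.1 and 7.23 TPM after knockdown and at 16.3, 12.6 and 13.6 TPM in control cells, the opposite direction to AXL (log2 fold change -0.49, limma adjusted p = 0.181 unblocked and 0.03 blocked by replicate). With the GC-content trend removed, EPHB6 and MERTK still passed with the block, and EPHB4 turned from 0.19 to -0.05 and did not pass.

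Adaptors and relays that carry RTK signals had a median log2 fold change of -0.27 over the 19 of 20 genes tested, against -0.08 for all genes. With the GC-content trend removed these medians were -0.15 and -0.12, so most of the gap was gone. Without the block 0 passed, and with it 4 of 19 were higher and 7 of 19 lower, against 9.94% and 25.0% of all genes tested. The 2 with the largest log2 fold change in size were SOS1, the exchange factor that loads RAS with GTP, and FRS2, the docking protein of FGF receptors. SOS1 was at 11.8, 6.57 and 8.70 TPM after knockdown and at 19.7, 16.0 and 18.7 TPM in control cells (log2 fold change -0.96, limma adjusted p = 0.0663 unblocked and 0.00556 blocked by replicate). FRS2 was at -0.71 and did not pass (limma adjusted p = 0.0671 with the block). PTPN11, the phosphatase SHP2 that acts between RTKs and RAS, fell with the block from 90.8 ± 12.4 to 56.7 ± 14.9 TPM (SD, n = 3 each, log2 fold change -0.69, limma adjusted p = 0.00503). SOS2, PIK3CA, PIK3CB, CRK and SDC1 were the other lower genes, with log2 fold changes from -0.67 to -0.27. SHC1, PIK3R2, SRC and IRS1 were higher, from 0.18 to 0.35. GRB2, the adaptor that most RTKs share, was the most abundant at 315 ± 11.3 and 314 ± 6.75 TPM (SD, n = 3 each), with a log2 fold change of 0.01. With the GC-content trend removed and the block, 0 adaptors were higher and 6 lower, against 5.79% and 29.2% of all genes, SOS1 and PTPN11 among them.

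Negative regulators and factors that shed or sort the receptors had a median log2 fold change of -0.24 over the 24 of 26 genes tested, against -0.08 for all genes. With the GC-content trend removed these medians were -0.17 and -0.12. GRB14, which binds and restrains the insulin receptor, was the 1 gene of the receptors and 4 pathway lists that passed in the fit on TPM as deposited without the block. With the GC-content trend removed and no block, SDC1 (limma adjusted p = 0.0468) and SPRY4 (limma adjusted p = 0.0458) passed beside it. GRB14 was at 8.96, 8.97 and 8.52 TPM after knockdown and at 13.6, 15.0 and 16.8 TPM in control cells, with a log2 fold change of -0.71 ± 0.10 (SE), where limma gave adjusted p = 0.0451 ignoring replicate numbers and 0.00669 in the replicate block fit. GRB14 lost that call under upper-quartile or median-of-ratios scaling, without the filter on low values, in voom, and without knockdown replicate 2 or 3 or any 1 of the control libraries. With the block 4 of 24 regulators were higher and 11 of 24 lower, against 9.94% and 25.0% of all genes tested. The same counts, not all of the same genes, passed after removal of the GC-content trend, against 5.79% and 29.2%. Of the ERK feedback inhibitors, SPRY1, SPRY4, SPRED1 and SPRED2 were lower with the block, with log2 fold changes of -0.42, -0.44, -0.31 and -0.25, and SPRY2 at -0.13 did not pass. SPRED1 no longer passed once the GC-content trend was removed. The ubiquitin ligase CBL, which sends RTKs to degradation, was at 9.45 ± 0.416 TPM against 13.0 ± 0.533 TPM (SD, n = 3 each), a log2 fold change of -0.42 (limma adjusted p = 0.0665 unblocked and 0.0141 blocked by replicate). The sheddase ADAM10 was at -0.81, SOCS6 at -0.67, PTPRJ at -0.36, PTPN1 at -0.33 and LRIG3 at -0.22, all passing with the block. The higher regulators were IGFBP3, GRB10, IGF2R and PTPRF. PTPRF and, among the lower ones, LRIG3 no longer passed with the block once the GC-content trend was removed. IGFBP3, which binds IGFs outside the cell, was at 3.40, 1.73 and 3.47 TPM against 0.507, 0.947 and 0.712 TPM, a log2 fold change of 1.14 (limma adjusted p = 0.0655 unblocked and 0.0179 blocked by replicate). Its recovered reads were few, at 62, 43 and 80 after knockdown and 9, 20 and 15 in control cells. The control mean was 0.722 TPM, so IGFBP3 met the filter of 1 TPM only through the knockdown libraries. ERRFI1, an inhibitor of EGFR and MET signalling, was at 61.2 ± 17.1 and 52.1 ± 8.45 TPM (SD, n = 3 each). It did not pass with the block on TPM as deposited (limma adjusted p = 0.116). With the block, ERRFI1 passed as higher after removal of the GC-content trend (0.38, limma adjusted p = 0.0342) and in voom (0.31, limma adjusted p = 0.0154).

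**Figure D5:**
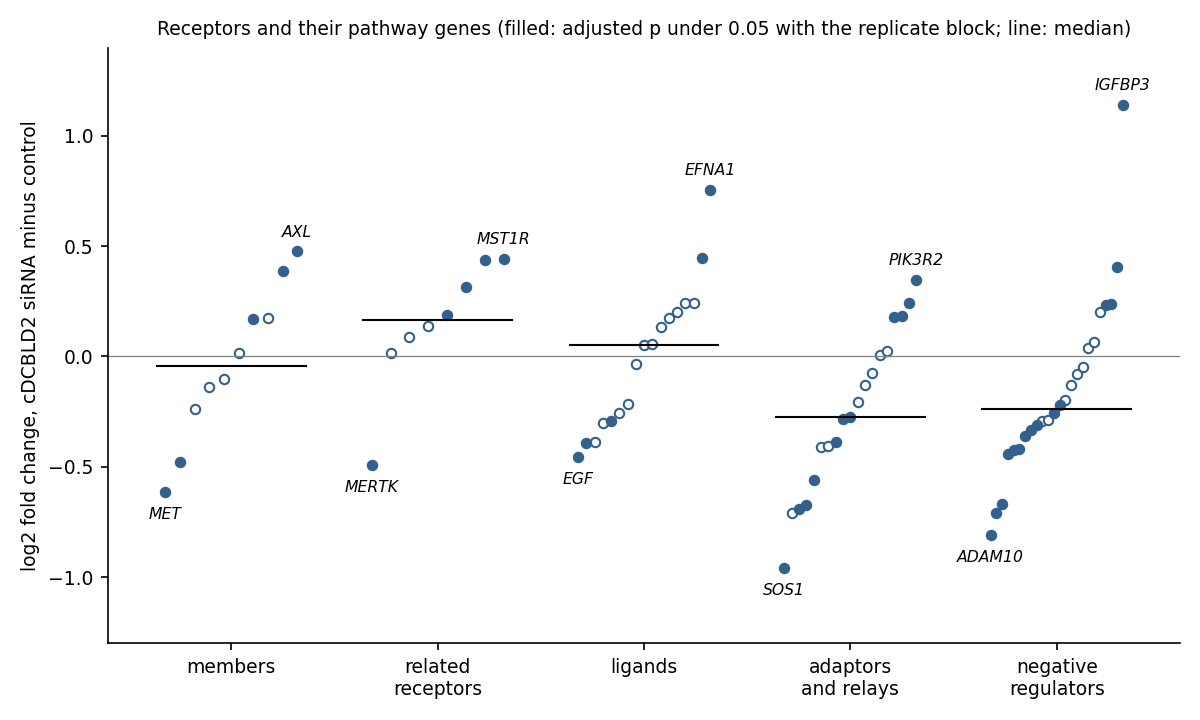
Log2 fold change (cDCBLD2 siRNA minus control, fit without the block) of the 10 receptors and of the tested genes of 4 pathway lists, with a black line at each list's median. Filled circles passed at an adjusted p under 0.05 with the replicate block, and the lowest and highest gene of each list is named, from SOS1 at -0.96 to IGFBP3 at 1.14.

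In the fit on TPM as deposited, MET had the largest log2 fold change in size of the 10 receptors. AXL had the largest under upper-quartile or median-of-ratios scaling, with the length trend removed, in voom and without knockdown replicate 2, and FGFR4 and EGFR exceeded MET with the GC-content trend removed. The genes most like MET over the 6 libraries were NAA25, ELL2 and CLIP1, with Pearson's r of 0.999 for each. These had the highest r among the 8186 genes that averaged 10 TPM or more, and like MET they come from transcripts of low GC content, between 39.5 and 43.5%. NAA25 was at 15.3, 7.56 and 10.1 TPM after knockdown and at 24.9, 18.5 and 21.9 TPM in control cells. ELL2 was at 13.1 TPM on average after knockdown and at 20.0 TPM in control cells, and CLIP1 was at 28.0 and 51.1 TPM. With 6 libraries that share 2 groups and 3 replicate numbers, such likeness is a description only.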

How the data were processed

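The 6 PolyA-Seq libraries of HCCLM3-SR cells were grouped by siRNA as the sample labels give it, 3 per group. The authors deposited TPM values per gene, in which each library sums to 1000000. The submitters' processing notes name fastp 0.20.1, HISAT2 2.1.0, StringTie 2.0 and the build hg38, without their roles, and the annotation, strand and multimapping settings are not given in the sources used here. The authors used DESeq2 for their own test.

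The test was limma 3.58.1 (R 4.3.3) on log2(TPM + 1), that is with a pseudocount of 1 and a mean-variance trend, for genes averaging 1 TPM or more. On this scale fold changes of low genes are understated. Calls used an adjusted p under 0.05 (Benjamini-Hochberg over all genes tested), and also a |log2 fold change| over 1, as the paper did. For shares and sums, exact permutation tests (two-sided) were used. The labels give replicate numbers but not what they stand for, and the replicate block entered as an alternative. Deviations from the group means correlated at 0.56, 0.343 and 0.362 over 13980 genes for numbers 1, 2 and 3. Other pairs were at -0.45 to 0.247. Only number 1 stood well apart, since the pairs that cross numbers 2 and 3 were at 0.247 and 0.215. Pairing by number is thus uncertain for 2 and 3, and blocked values stand beside the others. P-values measure the spread between these libraries, which may be technical.

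Reads were recovered because the values of a gene, after division by a factor per library, were in the ratio of whole numbers within 0.01, for 100.0% of 17285 genes above 0 in all libraries. GC content, loci and transcripts came from GENCODE release 29, for 94.2% of the genes tested, and trends were removed per library by loess with a span of 0.5, keeping each library's mean. The fits were tested on simulated data. There the share of unchanged genes among the calls with the block exceeded the 0.05 aimed at. Without the block that share also exceeded it when no replicate effect was simulated. When a replicate effect was simulated, the fit without the block missed most changes of log2 size 1. That effect was shared in full by libraries of the same number, which is uncertain in the real data for numbers 2 and 3. The simulation thus does not decide between the fits here.

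The receptors and gene lists were chosen with earlier results of these data known. Named were the 10 receptors and, from each list, the genes called without or with the block, the 3 most abundant and the 2 with the largest log2 fold change. HGF, GAS6, IGF1, FGF19, KLB, SPRY2 and the untested receptors were added after their values were seen. Scripts ran in Python 3.11.15.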

Additional observations from a re-analysis of the deposited data

How the results depend on the processing

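Without the block, 0 receptors were higher and 0 lower. The replicate block gave 3 higher and 2 lower, with the GC-content trend removed as well 1 and 4, and voom on recovered reads with the block 4 and 2. Upper-quartile scaling, median-of-ratios scaling, a mean of at least 5 TPM, removal of the length trend and voom without the block each gave 1 higher. No filter, a pseudocount of 0.1 and removal of the GC-content trend alone moved neither count. Leaving out 1 library at a time gave 0 to 1 higher and 0 to 2 lower receptors, and of these 6 fits only the fit without knockdown replicate 1 called receptors (AXL, EGFR and MET). The cause was not tested.

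MET, EGFR, AXL, ERBB2, INSR and FGFR4 kept their direction over all 17 alternatives. Removal of the GC-content trend, with or without the block, turned IGF1R (-0.0418), EPHA2 (-0.0486) and FGFR3 (-0.0584). ERBB3 turned to 0.0182 without the length trend and to 0.0011 in voom with the block. With 1 library left out, ERBB3 ranged from -0.36 to 0.22 and IGF1R from -0.0121 to 0.0579. In the summed TPM, the share differences of ERBB3 (-1.08 percentage points), IGF1R (-0.0794), INSR (-0.464) and FGFR4 (-3.44) were negative with MET left out of the sum and positive with it.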
